A study of Mus musculus with 2 samples.

Results

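The endoplasmic reticulum genes described here are 41 genes for the chaperones, folding enzymes, translocation machinery, degradation factors and stress sensors of the secretory pathway. They were taken by symbol from a list, and all 41 were found among the 13326 gene symbols that the deposited tables hold. Liver RNA was sequenced from male mice aged 12 weeks of the C57BL/6J strain after an overnight fast. The wild-type group was compared with a group of genotype Adipoq-/-, which lacks the adipocyte hormone adiponectin. For each genotype the RNA of 9 to 10 mice was pooled into 1 library, so the comparison has 2 libraries, no replicate check and no p-value. The targeted gene Adipoq was not analysed here. The study asked which hepatic genes of glucose and lipid metabolism depend on adiponectin.

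Hepatocytes secrete most plasma proteins and therefore carry a large rough endoplasmic reticulum. A nascent secretory protein enters through the Sec61 channel with the help of the translocon-associated protein complex (TRAP), loses its signal peptide to signal peptidase, and is folded by the HSP70 protein BiP, the HSP90 protein GRP94, the lectins calnexin and calreticulin, and the disulfide isomerases. Proteins that do not fold are extracted and degraded (endoplasmic reticulum-associated degradation). When unfolded proteins build up, the sensors ATF6 and IRE1 switch on the unfolded protein response, in which cleaved ATF6 and spliced XBP1 bind stress elements in the promoters of many of these genes.

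Promoter windows from RefSeq (build GRCm38.p6, 250 bases before to 50 after each start) were matched for 33 of the 41 genes. They are shown to describe the promoters. The genes were listed by symbol, but the list covers the unfolded protein response, and several of the genes are known from work on the stress elements. The shares of genes with an element are therefore not independent of the choice of the genes. The endoplasmic reticulum stress element (ERSE) was searched as CCAAT, then 9 bases of any kind, then CCACG, on both strands. It was present in 10 of the 33 genes (30.3%) and in 37 of 27025 genes with a window (0.137%). A shorter form, ERSE-II, searched as ATTGG, then 1 base, then CCACG, was found in Herpud1 and Dnajb11, compared with 12 genes in all (0.0444%). The CCACG part alone, which both elements contain, was present in 28 of the 33 genes (84.8%) and in 35.5% of all genes. The core of the unfolded protein response element, TGACGTG, was found in Hspa5 and Fkbp11 and in 2.22% of all genes. A match describes the letters in this window and not binding. The ERSE of Hspa5 overlapped 1 exon annotated in GENCODE M21, and the other ERSE matches overlapped none. The ERSE matches are given below, each read on its own strand, with the outer 5-base boxes in capitals.

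Hspa5, chr2:34772025-34772043, plus strand: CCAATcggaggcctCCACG
Hsp90b1, distal, chr10:86705638-86705656, minus strand: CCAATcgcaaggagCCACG
Hsp90b1, proximal, chr10:86705533-86705551, plus strand: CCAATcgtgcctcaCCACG
Calr, chr8:84847075-84847093, plus strand: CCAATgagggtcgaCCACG
Canx, chr11:50325800-50325818, minus strand: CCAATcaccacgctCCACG
Pdia6, chr12:17266491-17266509, plus strand: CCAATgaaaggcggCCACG
Dnajc3, chr14:118937827-118937845, plus strand: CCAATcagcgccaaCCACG
Ero1lb, chr13:12565682-12565700, minus strand: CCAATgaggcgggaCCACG
Syvn1, chr19:6046532-6046550, plus strand: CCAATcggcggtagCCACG
Creld2, chr15:88819520-88819538, minus strand: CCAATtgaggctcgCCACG
Derl3, chr10:75893242-75893260, minus strand: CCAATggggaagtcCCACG

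Stretches of 250 bases upstream of the start are shown in the direction of each gene for the genes past the 1.5-fold threshold used below whose windows hold an ERSE, Derl3 and Creld2, and for Sdf2l1, an example of the genes past it with the CCACG part and no ERSE, which also include Spcs1 and Fkbp11. Capitals mark the outer 5-base boxes of an ERSE and every further CCACG or its complement CGTGG.

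Derl3, chr10:75893148-75893397, plus strand: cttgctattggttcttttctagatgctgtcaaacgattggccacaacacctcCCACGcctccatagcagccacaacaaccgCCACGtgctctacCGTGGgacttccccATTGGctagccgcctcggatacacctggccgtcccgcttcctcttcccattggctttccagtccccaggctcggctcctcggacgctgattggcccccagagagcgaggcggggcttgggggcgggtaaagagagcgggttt
Creld2, chr15:88819396-88819645, plus strand: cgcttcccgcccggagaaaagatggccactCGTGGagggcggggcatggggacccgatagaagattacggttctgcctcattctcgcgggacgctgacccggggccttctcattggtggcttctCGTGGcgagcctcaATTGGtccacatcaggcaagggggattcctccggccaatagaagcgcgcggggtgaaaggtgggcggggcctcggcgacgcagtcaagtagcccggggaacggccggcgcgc
Sdf2l1, chr16:17132384-17132633, minus strand: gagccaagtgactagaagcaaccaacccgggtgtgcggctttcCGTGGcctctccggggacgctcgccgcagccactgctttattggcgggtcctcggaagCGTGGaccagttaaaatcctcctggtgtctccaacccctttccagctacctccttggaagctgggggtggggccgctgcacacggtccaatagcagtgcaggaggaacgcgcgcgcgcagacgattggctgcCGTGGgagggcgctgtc

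Expression was deposited as FPKM, that is, fragment counts scaled by transcript size and by library size. The ratio used here is log2((knockout FPKM + 1) / (wild-type FPKM + 1)), minus its median over the 11985 genes with at least 1 FPKM in a library. That median was -0.15, and the scale understates differences of low genes. A relative ratio past 1.5-fold was taken as the mark of a larger difference. In all, 6.73% of genes were past it as higher in the knockout library and 2.61% as lower. All 41 endoplasmic reticulum genes passed the 1 FPKM filter, each in both libraries. The 10 hepatocyte markers examined, among them Alb, Ttr and Hnf4a, summed to 67292 FPKM in wild-type liver against 63324 in knockout liver. Alb alone was 17522 and 14031. Relative to the all-gene median 6 of the 10 lay above and 4 below, with a median of 0.09. Differences in cell number and in RNA per cell cannot be told apart in bulk tissue.

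The endoplasmic reticulum genes lay on both sides of the all-gene median. Their summed FPKM was 3349 in wild-type liver against 3466 in knockout liver, or 0.4196% and 0.389% of all FPKM. Relative to the all-gene median, 23 genes were above and 18 below, with a median of 0.06 and a range from -0.45 for Sel1l to 1.33 for Fkbp11. Their lower and upper quartiles were -0.24 and 0.32, beside -0.18 and 0.25 for all genes. Past 1.5-fold as higher were 8 genes, Fkbp11, Derl3, Spcs1, Sdf2l1, Ssr4, Sec61b, Creld2 and Sec11c, and none was past it as lower. Those are 8 of 41 beside 6.73% of all genes, and 0 of 41 beside 2.61%. The nearest genes to the threshold were Sec11c, which was past it (0.64), and Sec61g, which was not (0.52). On the FPKM as deposited, 16 genes were higher and 25 lower in the knockout library, and 6 were past 1.5-fold as higher and 1, Sel1l, as lower, beside 3.23% and 6.17% of all genes on that scale. With the libraries rescaled to equal sums only Fkbp11 and Derl3 were past it as higher and 8 genes as lower, beside 1.52% and 12.5% of all genes, whose median was then -0.28. On that scale 11 genes lay above 0. These 11 were the 8 genes above with Sec61g, Manf and Herpud1.

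**Figure D1:**
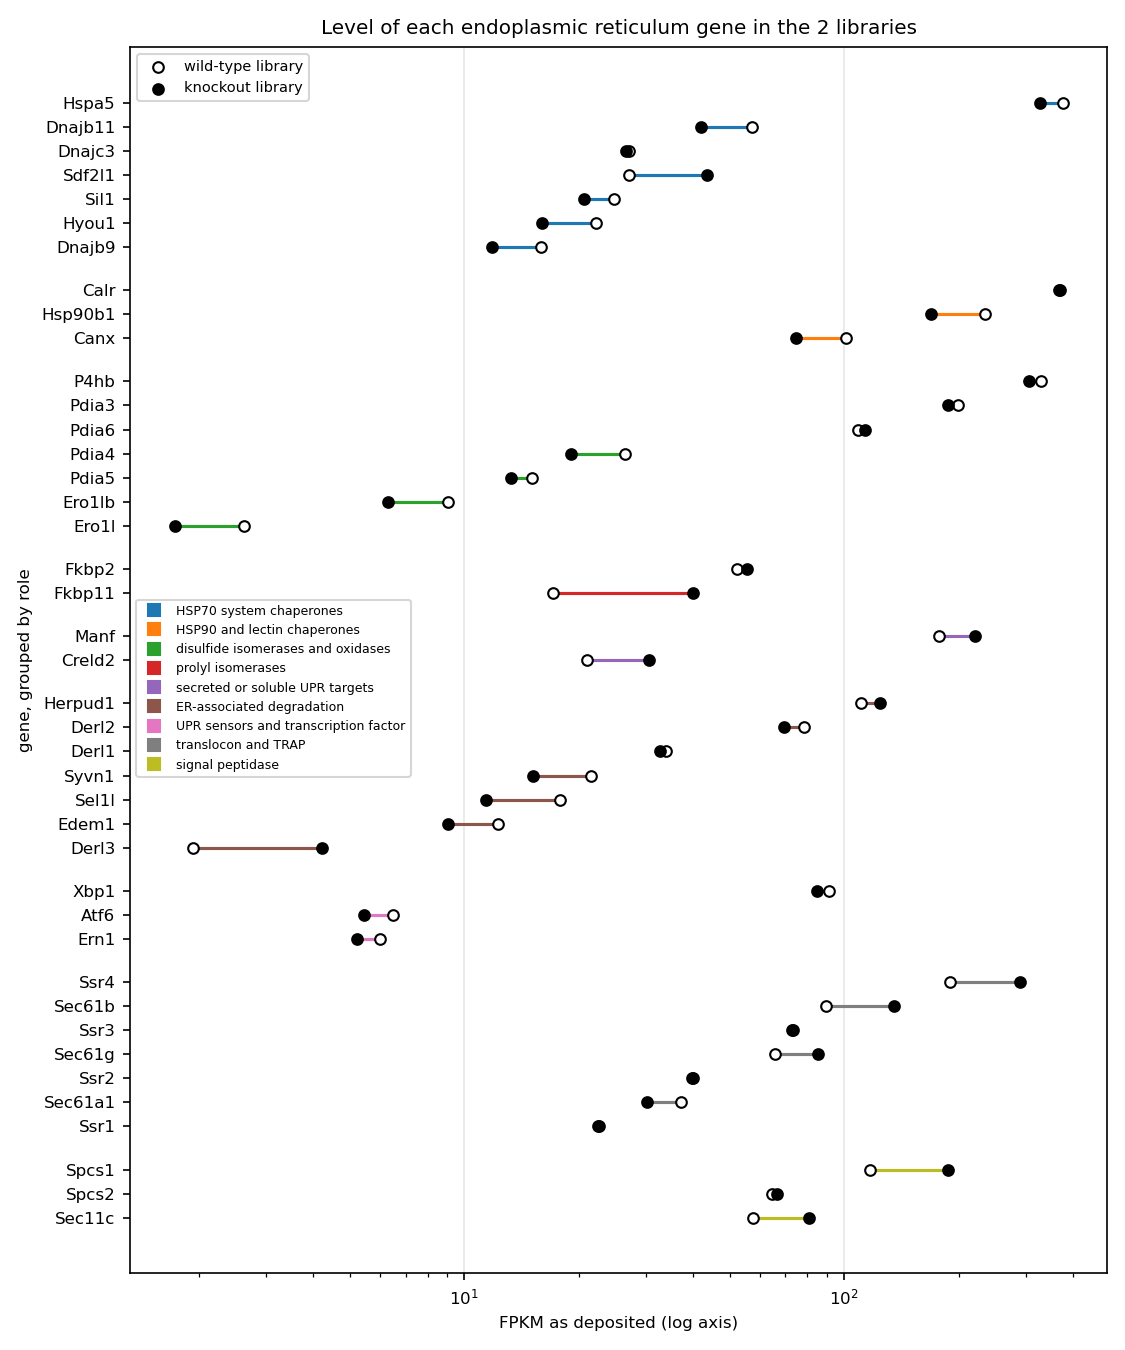
FPKM of each gene (horizontal log axis) in the wild-type library (open circles) and the knockout library (filled circles), 1 library each with no error bars, grouped and coloured by role; lines join the same gene, and open circles can be hidden where values coincide. Fkbp11 and Derl3 show the widest gaps toward the knockout library, whereas the most abundant genes Hspa5, Calr and P4hb lead in both.

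Among the central chaperones, Hspa5, which encodes BiP, measured 375 FPKM in wild-type liver against 327 in knockout liver (relative log2 ratio -0.05). Calr, the gene for the lectin chaperone calreticulin, was 369.7 and 368 (0.14). Hsp90b1, which encodes GRP94, was 234 and 169 (-0.31). Canx, the gene for membrane-bound calnexin, was 101 and 74.6 (-0.28). Hsp90b1 and Canx were lower in the knockout library both as deposited, by 1.38-fold and 1.35-fold, and relative to all genes, whereas Hspa5 was 1.15-fold lower as deposited and Calr was nearly equal. Calr thereby passed Hspa5 as the most abundant of the 41 genes in the knockout library.

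The partners of BiP mostly lay below the all-gene median. Hyou1, a nucleotide exchange factor, was 22.2 FPKM in wild-type liver against 16.0 in knockout liver (-0.30). The other exchange factor, Sil1, was 24.7 and 20.7 (-0.09). Of the J-domain co-chaperones, which deliver unfolded proteins to BiP, Dnajb11 was 57.0 and 41.9 (-0.28) and Dnajb9 15.9 and 11.9 (-0.24), whereas Dnajc3 was 27.2 and 26.6 (0.12). Sdf2l1, which works in a complex with Dnajb11, differed from this group with 27.0 FPKM in wild-type liver against 43.6 in knockout liver (0.82). Dnajb11 and Sdf2l1, whose products act together, thus had ratios on opposite sides of the all-gene median. Sdf2l1 ranked 247 of 11985 genes from the highest ratio.

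The abundant enzymes of disulfide formation lay close to the all-gene median. P4hb, the gene for protein disulfide isomerase, was 329 FPKM in wild-type liver against 307 in knockout liver (0.05). Pdia3, which works with the lectin chaperones, was 199 and 188 (0.06), and Pdia6 was 109 and 113 (0.21). The less abundant isomerases were Pdia4 at 26.5 and 19.1 (-0.30) and Pdia5 at 15.1 and 13.3 (-0.02). The oxidases that recharge these enzymes were both lower, Ero1lb at 9.05 and 6.30 (-0.31) and Ero1l at 2.62 and 1.73 (-0.26). None of these 7 genes was past 1.5-fold on the relative scale. Within the 5 isomerases P4hb made up 48.45% of the summed FPKM in wild-type liver against 47.9% in knockout liver, and Pdia3 29.4% and 29.3%, so their proportions were close.

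The prolyl isomerases, which speed up rotation of peptide bonds at proline, held the highest ratio of the 41 genes. Fkbp11 was 17.1 FPKM in wild-type liver against 39.9 in knockout liver, 2.33-fold as deposited, with a relative log2 ratio of 1.33 that ranked 32 of 11985 genes. Fkbp2 was 52.2 and 55.6 (0.24). Fkbp11 therefore made up 24.7% of their sum in wild-type liver against 41.8% in knockout liver. Of the small soluble proteins induced by endoplasmic reticulum stress, Creld2 was 21.02 and 30.6 FPKM (0.67) and Manf, a secreted factor, was 178 and 221 (0.46).

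Among the genes of degradation, Derl3 differed from its paralogs. The derlins are membrane proteins that help to move misfolded proteins back to the cytosol. Derl3 was 1.93 FPKM in wild-type liver against 4.21 in knockout liver (relative log2 ratio 0.98, rank 115 of 11985). Derl1 was 33.9 and 32.8 (0.11) and Derl2 78.1 and 69.5 (-0.02). Derl3 was the lowest of the 3 derlins in both libraries, at 1.69% and 3.95% of their summed FPKM. The ubiquitin ligase genes were at the other end. Syvn1, the ligase HRD1, was 21.6 and 15.1 (-0.33), and its scaffold Sel1l was 17.8 and 11.4 (-0.45), the lowest ratio of the 41 genes. Edem1, a lectin that takes glycoproteins out of folding, was 12.3 and 9.07 (-0.25), and Herpud1, a membrane adaptor of the ligase complex, was 111 and 124 (0.32).

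The sensor genes Atf6 and Ern1 and the transcription factor gene Xbp1 were near the all-gene median. Xbp1 was 91.1 FPKM in wild-type liver against 84.9 in knockout liver (0.05), Atf6 was 6.51 and 5.44 (-0.07), and Ern1, which encodes IRE1 alpha, was 6.00 and 5.22 (-0.02). These are levels of total messenger RNA for each gene. Splicing of Xbp1, cleavage of ATF6 and phosphorylation of IRE1 were not measured here.

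The subunits of the translocation machinery differed within each complex. Of the Sec61 channel, the pore-forming subunit gene Sec61a1 was 37.1 FPKM in wild-type liver against 30.3 in knockout liver (-0.14). The small subunits Sec61b, at 89.5 and 135 (0.74), and Sec61g, at 65.7 and 85.2 (0.52), were higher. The most abundant of these 3 genes was 2.41-fold above the least abundant in wild-type liver against 4.47-fold in knockout liver. Of the TRAP complex, Ssr4 was 189 and 289.6 (0.76), while Ssr1 (22.5 and 22.6), Ssr2 (39.8 and 39.97) and Ssr3 (73.1 and 72.8) each had a relative ratio between 0.14 and 0.16. Ssr4 made up 58.3% of the TRAP transcripts in wild-type liver against 68.2% in knockout liver. Of signal peptidase, Spcs1 was 117 and 187 (0.82) and the catalytic subunit Sec11c 57.3 and 81.0 (0.64), whereas Spcs2 was 64.3 and 66.4 (0.20). The subunits also differ in transcript length. After the length adjustment described below, Sec61a1, Sec61b and Sec61g were at -0.04, 0.36 and 0.54. Ssr1, Ssr2, Ssr3 and Ssr4 were then at 0.26, 0.02, 0.22 and 0.45, and Spcs1, Spcs2 and Sec11c at 0.60, 0.28 and 0.34.

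**Figure D2:**
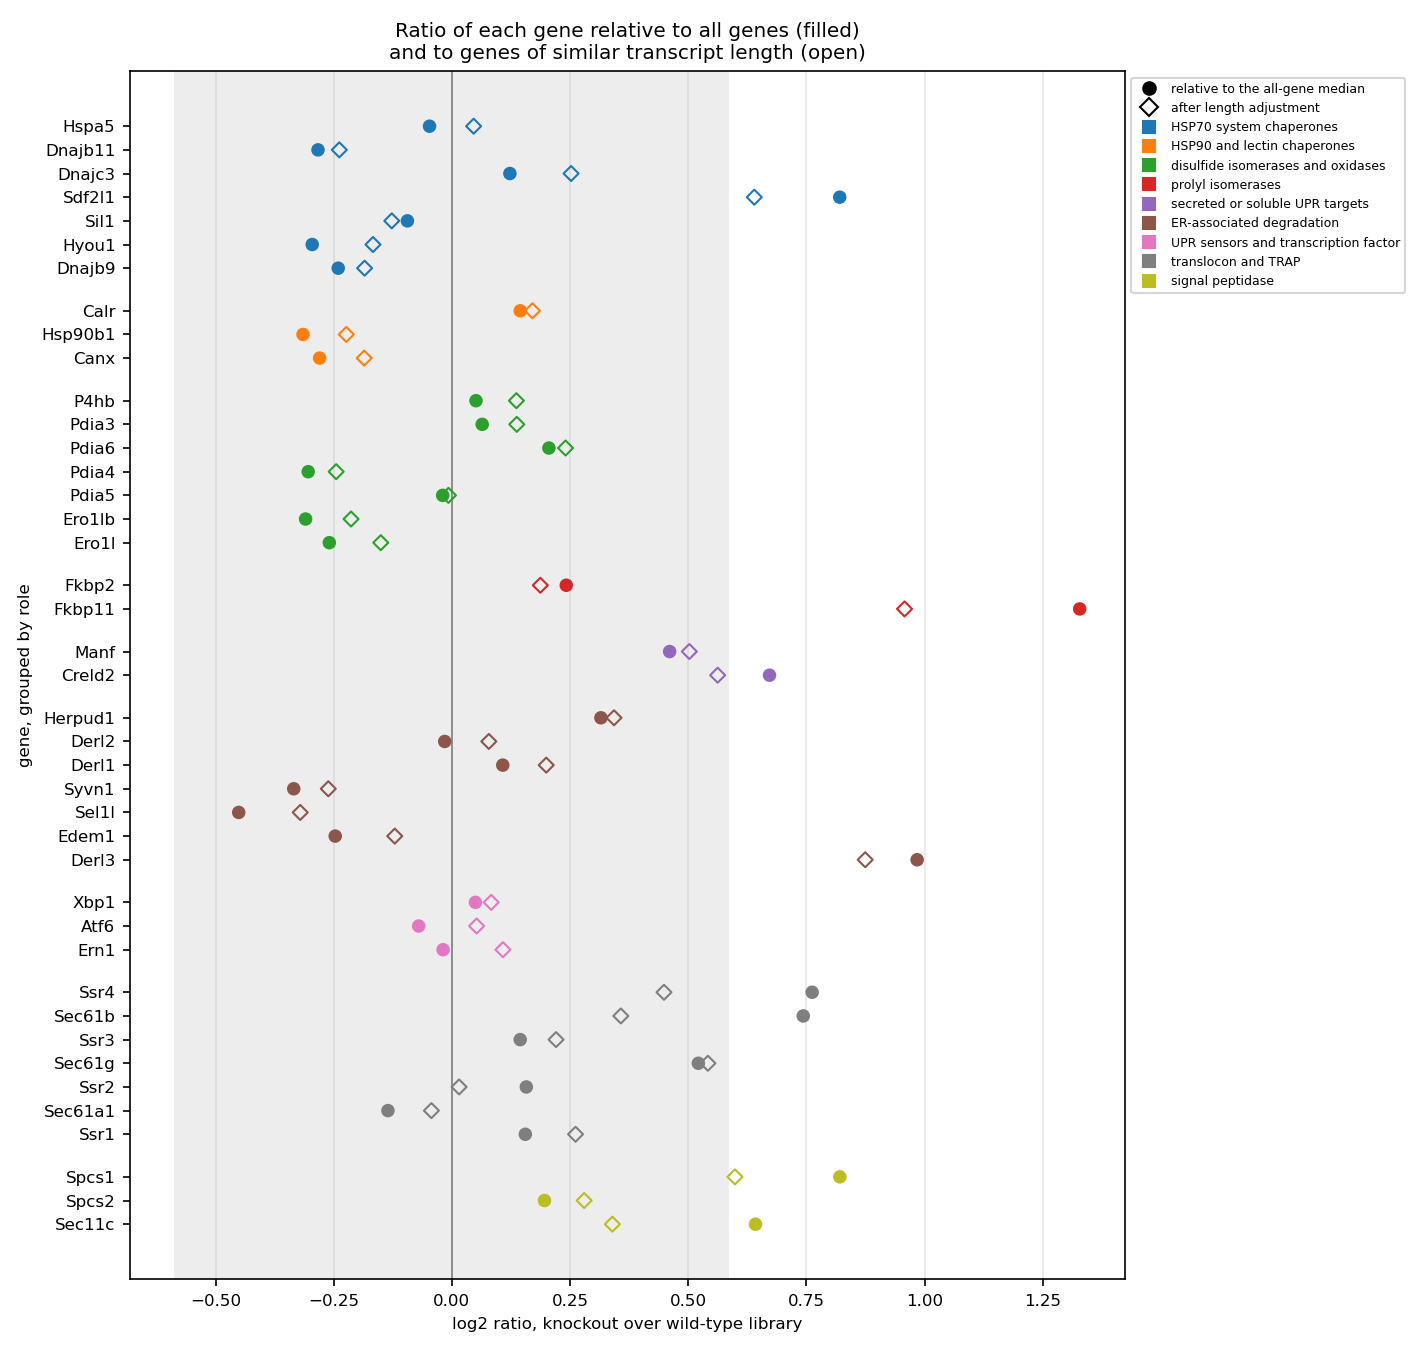
Log2 ratio of knockout over wild-type library (horizontal axis) for each gene, relative to the all-gene median (filled circles) and after length adjustment (open diamonds), grouped and coloured by role; the grey band spans 1.5-fold either way and there are no error bars with 1 library per genotype. Past the band, 8 filled circles lie to the right and none to its left, and the 4 open diamonds to its right are Fkbp11, Derl3, Sdf2l1 and Spcs1.

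Shorter transcripts had higher ratios. Lengths of the longest protein-coding transcript (GENCODE M21) were found for all 41 genes and ran from 564 nt for Sec61b to 9333 nt for Ssr1. Across the 41 genes, all measured in the same 2 libraries, the relative ratio had a Spearman rho of -0.69 with length, and across the 11571 genes tested with a length it was -0.44. All 4 members up to 1000 nt (Fkbp11, Ssr4, Sec61b and Sec11c) were past 1.5-fold as higher, beside 21.5% of the 2189 genes of that size. Between 1000 and 2000 nt it was 4 of 10 members (Derl3, Spcs1, Sdf2l1 and Creld2) beside 4.95% of 2548 genes. Above 2000 nt it was none of 27, where 2.25% of genes between 2000 and 4000 nt and 1.28% of longer ones were past the threshold. The part of library preparation in this length trend was not tested.

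Each ratio was therefore also taken against the running median of 500 genes of similar length. On this scale 2.97% of 11571 genes were past 1.5-fold as higher and 2.73% as lower, and 4 and 0 of the 41 genes. The 4 were Fkbp11 (0.96), Derl3 (0.87), Sdf2l1 (0.64) and Spcs1 (0.60). Creld2 (0.56), Sec61g (0.54) and Manf (0.50) came next, and Ssr4 (0.45), Sec61b (0.36) and Sec11c (0.34) were no longer past the threshold. Genes as short as Sec61b had a median relative ratio of 0.39, and genes as short as Derl3 one of 0.11. The lowest values were Sel1l (-0.32), Syvn1 (-0.26) and Pdia4 (-0.24). The median of the 41 genes was 0.14, with 27 above 0, and their rho with length was -0.55 after the adjustment. Lengths taken as the median coding transcript were a choice made after seeing the data. They left 6 genes past the threshold as higher and 0 as lower, beside 3.07% and 2.97% of all genes. The 6 were the same 4 with Ssr4 (0.66) and Creld2 (0.61). With these lengths Sec61g fell to 0.39 and Manf to 0.23.

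**Figure D3:**
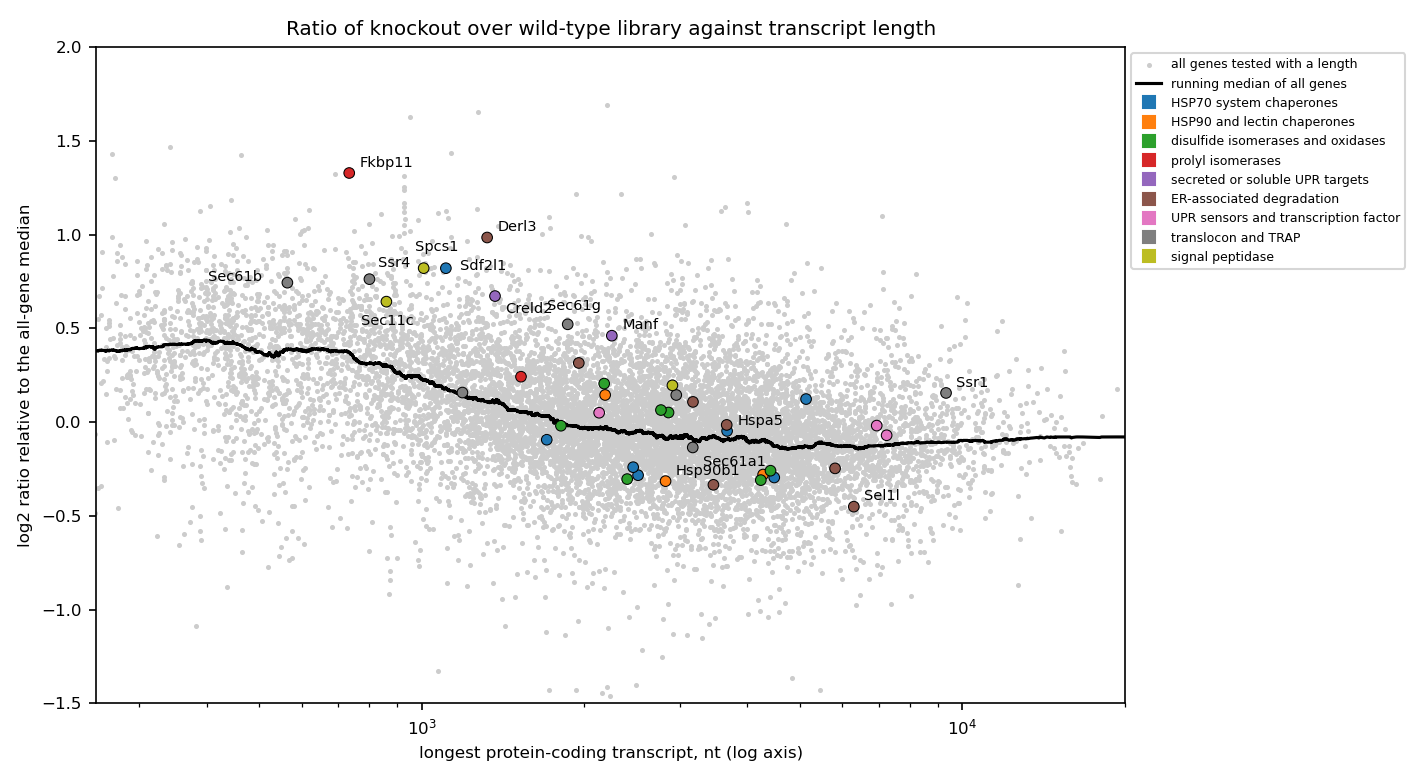
Relative log2 ratio (vertical axis) against the length of the longest protein-coding transcript (horizontal log axis) for all genes with a length (grey), their running median (black line) and the 41 genes coloured by role; 216 of 11571 genes fall outside the axes. Fkbp11, Derl3, Sdf2l1 and Spcs1 lie at least 1.5-fold above the black line, and Sel1l lies farthest below it among the coloured points.

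Genes whose windows held an ERSE did not share a direction. The 10 genes ran from -0.33 for Syvn1 to 0.98 for Derl3 with a median of 0.04, beside 0.06 for the 23 genes with a window and no ERSE. After length adjustment the medians were 0.11 and 0.14. Hspa5, with an ERSE whose far end is 65 bases before the start and a TGACGTG 157 bases before it, was at -0.05, and Hsp90b1, with 2 ERSE matches, was at -0.31. Fkbp11, the gene with the highest ratio, held no ERSE but a TGACGTG just after 1 of its starts.

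**Figure D4:**
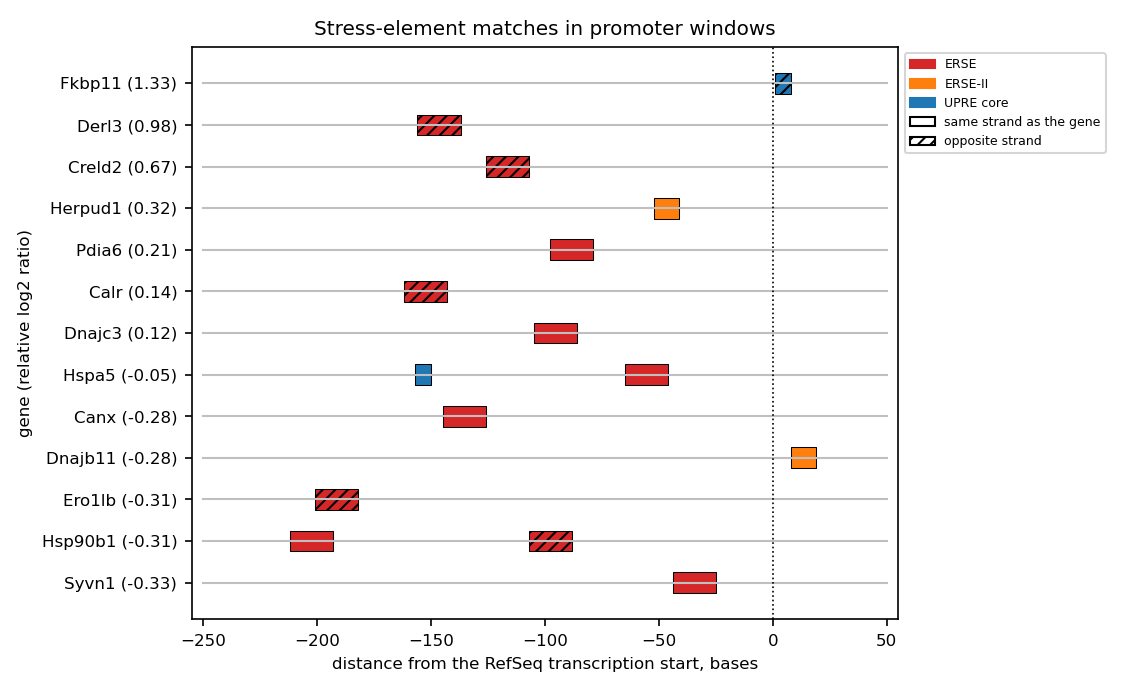
Position of each ERSE (red), ERSE-II (orange) and TGACGTG match (blue) relative to the RefSeq start (horizontal axis, bases, 0 dotted) in the 13 genes with a match, ordered by relative log2 ratio in parentheses; hatching marks matches on the strand opposite to the gene. Genes with an ERSE run from Derl3 (0.98) to Syvn1 (-0.33), below Fkbp11 (1.33), which has a TGACGTG match and no ERSE.

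Other genes of the same pathways, taken from wider lists, showed few differences past 1.5-fold, beside the 6.73% and 2.61% of all genes. Of 25 further oxidoreductases and chaperones 2 were past it as higher and none as lower (median close to 0), namely the prolyl isomerase Ppib (240 FPKM in wild-type liver against 389 in knockout liver) and the peroxiredoxin Prdx4 (61.4 and 95.6). Both have transcripts under 1000 nt, and their length-adjusted ratios were 0.58 and 0.54. Of 14 further translocation genes 2 were higher and none lower (median 0.06), namely Sec11a, a second catalytic subunit of signal peptidase (80.4 and 120), and Srp14, of the signal recognition particle (64.6 and 92.0). Of the 5 signal peptidase genes in both sets, Spcs1, Sec11a and Sec11c were past the threshold, and Spcs2 (0.20) and Spcs3 (0.06), named after its values were seen, were not. After length adjustment Spcs1 (0.60) and Sec11a (0.62) were past it, and Sec11c and Srp14 (both 0.34) were not. Of 11 oligosaccharyltransferase genes, which attach glycans to nascent chains, Krtcap2 was higher (77.3 and 109.95) and Magt1 had the lowest ratio (16.4 and 9.49, -0.58), with a list median of -0.09.

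The calnexin cycle and glycan trimming list had 0 of 13 genes past the threshold and 10 below the all-gene median (median -0.10), with Uggt2, a folding-sensor paralog, at 2.53 and 1.17 FPKM and the glucosidase Mogs at 8.97 and 5.55. Of 20 further degradation genes the selenoprotein gene Selk was higher (98.1 and 133) and none was lower (median -0.08), and Ubxn4, an adaptor of the segregase VCP, was 17.4 and 11.4. Of 20 other genes of unfolded protein response signalling, 16 lay below the all-gene median (median -0.10). Chac1, a target of the ATF4 branch, was the only one past the threshold, as lower (1.46 and 0.450), and Eif2ak3, the gene for the sensor PERK, was 4.32 and 2.499 (-0.45). Of 24 genes of transport to the Golgi none was past it (median -0.09). The coat subunit Sec24d was 13.0 and 8.30, and Sec23a 19.4 and 12.7. After length adjustment the medians of the calnexin, degradation, signalling and Golgi lists were -0.04, -0.01, -0.05 and -0.05. In that order, 5 of 13, 9 of 20, 7 of 20 and 10 of 24 genes then lay above 0.

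**Figure D5:**
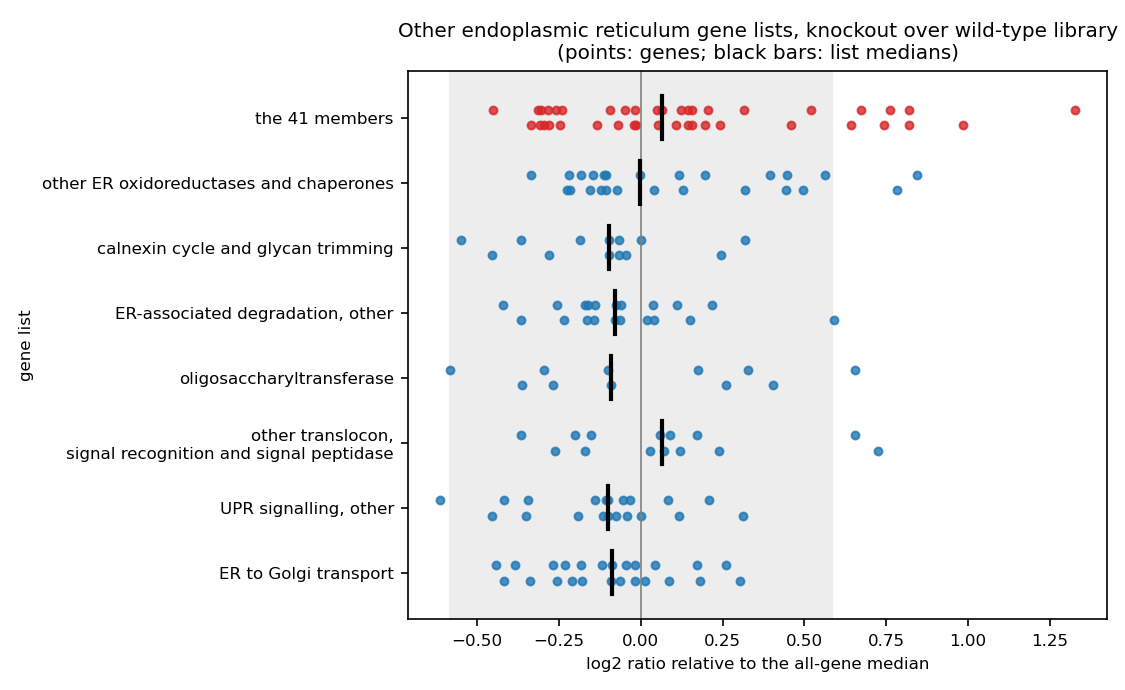
Relative log2 ratio (horizontal axis) of each gene in the 41-gene set (red) and in 7 wider lists (blue), with list medians as black bars and the grey band spanning 1.5-fold either way. The list medians lie between -0.10 and 0.06, and the highest point is Fkbp11 at 1.33.

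Several of the higher genes are also known to be abundant in other secretory cells, so markers of those cells were read in the same libraries. The marker lists, too, were chosen with earlier results of these data known. Of 16 pancreatic acinar markers 3 were measured and none was listed at 0, with sums of 30.2 FPKM in wild-type liver against 59.7 in knockout liver. Most of both sums was the elastase gene Cela1 (28.5 and 56.9), a gene of length 1108 nt, followed by Cela2a (0.517 and 1.96) and Amy2a5 (1.247 and 0.822). Of 14 plasma cell and B cell markers 6 were measured, with sums of 99.1 and 73.0. The largest part of both sums was Sdc1 (48.6 and 34.6). The immunoglobulin joining chain gene Igj was 1.69 and 2.81, Igkc 25.9 and 25.5, and Ighm 20.2 and 7.78. Cd79a was 0.982 and 0.712, and Cd79b 1.74 and 1.51. Of 10 markers of bile duct and mucous cells 4 were measured, with sums of 18.7 and 43.8. The trefoil peptide gene Tff3 was 2.52 and 20.2, and Spp1 was 13.4 and 21.01. As deposited Krt19 was nearly equal (1.018 and 1.085), and Sox9 was lower in the knockout library (1.715 and 1.515). Relative to the all-gene median all 4 markers lay above 0, from 0.04 for Sox9 and 0.20 for Krt19 to 2.74 for Tff3. Of 12 markers of Kupffer cells and macrophages 11 were measured, with sums of 222 and 268. The lysozyme gene Lyz2 (72.5 and 116) held most of that gap. As deposited, Emr1, Marco, Vsig4, Timd4, Lyz2 and C1qa were higher in the knockout library, and Clec4f, Cd5l, Csf1r, Cd68 and Cd163 were lower. Relative to the all-gene median 9 of the 11 lay above and 2 below, with a median of 0.27. Marco had the highest relative ratio (1.21), and Clec4f was at 0.06. Listed markers that were not measured had no matching symbol in the deposited data. The Kupffer cell and macrophage markers named without FPKM values entered the sums. The part of such cells in the ratios of Fkbp11, Derl3 and Sdf2l1 was not tested.

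Exons of 6 of the 41 genes overlap those of another protein-coding gene in GENCODE M21. The widest overlap was Spcs1 with Glt8d1 on the opposite strand, 252 bases, where Glt8d1 was 3.41 FPKM in wild-type liver against 2.91 in knockout liver, beside 117 and 187 for Spcs1. Derl2 overlaps Mis12 (4.90 and 5.94) by 231 bases and Syvn1 overlaps Mrpl49 (19.9 and 15.6) by 91 bases, both on the opposite strand. The remaining overlaps, of Manf, Pdia3 and Pdia6, were 50 bases or shorter. Whether the counting used strand is not given in the sources used here, so reads in these overlaps are of uncertain origin.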

How the data were processed

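Liver messenger RNA was measured in 2 libraries, 1 per genotype, each assigned by its genotype label. The authors deposited FPKM, 1 value per row. The submitters' processing notes list TopHat, Cuffdiff and the builds mm9 and NCBIM37. Program versions, annotation and filters were not given in the sources used here. Read counts and depth are unknown, and low values were checked for steps of whole reads: at most 5 of 1303 genes under 1 FPKM shared a log2 ratio to 3 decimals, so none were recovered. Both tables hold the same 13352 rows. For the 26 symbols in 2 rows, none of them among the 41 genes, the row of higher mean FPKM was used.

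Ratios were computed with a pseudocount of 1 FPKM and a minimum of 1 FPKM in a library, and centred on all genes (Python 3.11.15, pandas 2.3.3, numpy 2.4.6). Running medians over length used 500 genes. The script was tested on simulated data. GENCODE M21 and RefSeq are on GRCm38, not the authors' build, and served for lengths, overlaps and promoter letters; 414 genes had no length. Older symbols were matched through RefSeq synonyms. The 41 genes, the wider lists and the marker lists were chosen with earlier results of these data known. Every listed gene is named, with the 2 genes of each wider list farthest from 0 and marker genes. Alternatives changed the pseudocount, the minimum, the scaling, the length adjustment, the row kept and the fold. No protein sequence is shown.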

Additional observations from a re-analysis of the deposited data

How the results depend on the processing

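With 1 library per genotype no alternative tests replicate error, and depth limits are unknown because the files give no counts. Of 449 ratios of single genes under 11 alternatives, 420 kept their side of the 1.5-fold threshold, 19 were no longer past it, 10 were newly past it and 0 changed direction past it. Fkbp11 and Derl3 were past it under every alternative in which they were measured, and Derl3 was not measured with a minimum of 5 FPKM. The main values were 8 genes past 1.5-fold as higher, 0 as lower and a median of 0.06. Without centring they were 6, 1 and -0.087, beside 3.23% and 6.17% of all genes and -0.15. With equal sums they were 2, 8 and -0.25, beside 1.52% of all genes as higher, 12.5% as lower and an all-gene median of -0.28. With equal sums after leaving out major urinary protein and mitochondrial genome genes they were 4, 1 and -0.13, beside 2.67% and 7.59% of all genes and -0.19. Length adjustment gave 4 genes as higher and 0 as lower, beside 2.97% and 2.73% of all genes. At the lower threshold tried 10 genes were higher and 2 lower, and at 2-fold 1 gene was higher and 0 lower. The shares of all genes past these other thresholds are not given, so these counts have no all-gene comparison. Pseudocounts of 0.1 and 0.5, both other minimums, equal upper quartiles, lengths by the median transcript and the other row of a repeated symbol left the counts within 1.5 times. No paired analysis was possible because each genotype has 1 library.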
